A study of Danio rerio with 5 samples.

Results

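Wnt proteins are secreted, lipid-modified ligands that bind Frizzled receptors on the cell surface. Together with a coreceptor of the LRP family they stabilise beta-catenin, which then turns on target genes with factors of the TCF and LEF family, while other Wnt and Frizzled pairs steer cell movement without beta-catenin. Secreted inhibitors set where the signal acts, since Sfrp proteins hold Wnts through a domain like that of Frizzled and Dkk proteins block the LRP coreceptor. In the zebrafish embryo this pathway patterns the body axis, the neural plate and the tail, drives the narrowing of the axis, and acts in the placement of heart, blood and liver precursors.

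The genes described here are the zebrafish wnt, fzd, sfrp and dkk genes, taken as every non-control probe whose symbol begins with one of these names followed by a number. The rule found 65 probes of 40 genes, out of 43603 probes and 13143 named genes on the array. They were 20 Wnt ligand genes, 12 Frizzled genes, 4 sfrp genes and 4 dkk genes. The reference table of gene names holds 50 such genes, and the other 10, among them wnt1 and fzd4, are not analysed here.

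Zebrafish (Danio rerio) embryos of the gata5/6 MO group (2 arrays) received 6.25 ng of morpholino against gata5 and 1.25 ng against gata6 in 1 nl at the 1-cell stage, and embryos of the control MO group (3 arrays) received 7.5 ng of control morpholino. A morpholino (MO) is a synthetic oligonucleotide that pairs with a chosen RNA and blocks its translation or splicing, so its dose per cell falls as the embryo grows and no allele was changed. The labels give no other difference between the groups and name no strain, and total RNA of whole embryos at 14 h post fertilization was read on 1-colour Agilent arrays. The labels cite an earlier report that this pair of morpholinos also lowers gata4, and the comparison asks what changes when all 3 GATA factors are reduced.

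Signals are given as log2 of the processed intensity relative to the 75th percentile of the same array, so a value of 0 is the 75th percentile, and log2 changes are gata5/6 MO minus control MO. A change passed if its two-sided adjusted p was under 0.05 in limma, with Benjamini-Hochberg adjustment over all 10791 genes tested. Per array, 70.1% to 71.1% of probes gave a signal well above background, and saturated spots were absent. Tissue markers of a somite-stage embryo were present, with 79 of the 81 marker genes that had a probe, in 11 lists, measured. The gata4 signal was -1.93 and -1.99 on the gata5/6 MO arrays, against -1.29, -1.31 and -1.35 on the control MO arrays. The gata5 signal was 5.47 and 5.70 in gata5/6 MO embryos, against 3.61, 3.60 and 3.59 in control MO embryos. The gata6 signal was 5.47 and 5.31 in gata5/6 MO embryos, against 2.55, 2.52 and 2.55 in control MO embryos. All 3 passed, gata4 lower and gata5 and gata6 higher. The gata4 call was lost with normexp background correction (-0.66, adjusted p = 0.600) and kept with a repaired normexp fitted without marked spots (-0.48, adjusted p = 0.00766). Since a morpholino can act without lowering its target RNA, the gata5 and gata6 levels do not check the injection. Both gata5/6 MO arrays lay on slide 2 and scan 2 and all control MO arrays on slide 1 and scan 1, so slide, scan and group cannot be told apart. Separate clutches are not stated for the replicates, so the p-values reflect how much these samples varied, and that variation may be technical only.

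Of the 40 genes, 31 were measured, that is, on each array of 1 group or both the gene's probe was well above background. These were 16 of 20 Wnt ligand genes, 10 of 12 Frizzled genes, all 4 sfrp genes and 1 of 4 dkk genes, dkk1b. On all 5 arrays 30 of the 31 were well above background, and the exception was sfrp1b, above it on 1 of the 2 gata5/6 MO arrays and on all control MO arrays. Of the other 9 genes, dkk2, dkk3a, dkk3b, fzd1 and wnt2ba were not well above background on any array. The genes wnt7aa, wnt9b, fzd3b and wnt2 were above it on at most 1 array of a group, so no change is given for these 9. No member was well above background throughout 1 group and on no array of the other.

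Few of the measured genes passed. The receptor gene fzd9b passed as lower, no member passed as higher, and 30 of the 31 did not pass. Among all genes tested, 15% passed (7.84% higher and 7.17% lower). The groups' arrays did not overlap for 15 of the 31 members, against 50.8% of all genes tested. The median log2 change of the members was 0.02, within a range of -0.52 to 0.36, and the median over all genes tested was 0.04. A bulk sample of the embryo cannot tell fewer cells of a type from less RNA per cell. For each of the 30 genes that did not pass, the 95% interval of the change lay within 2-fold in either direction, and for 22 of them it lay within 1.5-fold. The other 8 were wnt4b, wnt2bb, wnt9a, wnt3, fzd8a, fzd5, fzd3a and sfrp1b, with bounds reaching -0.93 and 0.60 on the log2 scale. These intervals are for the brightest kept probe of a gene. Other probes of wnt4 (-0.93 to -0.03), wnt5b (-0.14 to 0.79) and fzd6 (-0.64 to 0.03) went beyond 1.5-fold. That of wnt5b was kept only through the gata5/6 MO group, where its signal was higher. The intervals use a single variance for both groups, although the median SD over all genes was 0.170 in gata5/6 MO and 0.0654 in control MO embryos. They also do not cover slide and scan, which follow the groups.

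**Figure D1:**
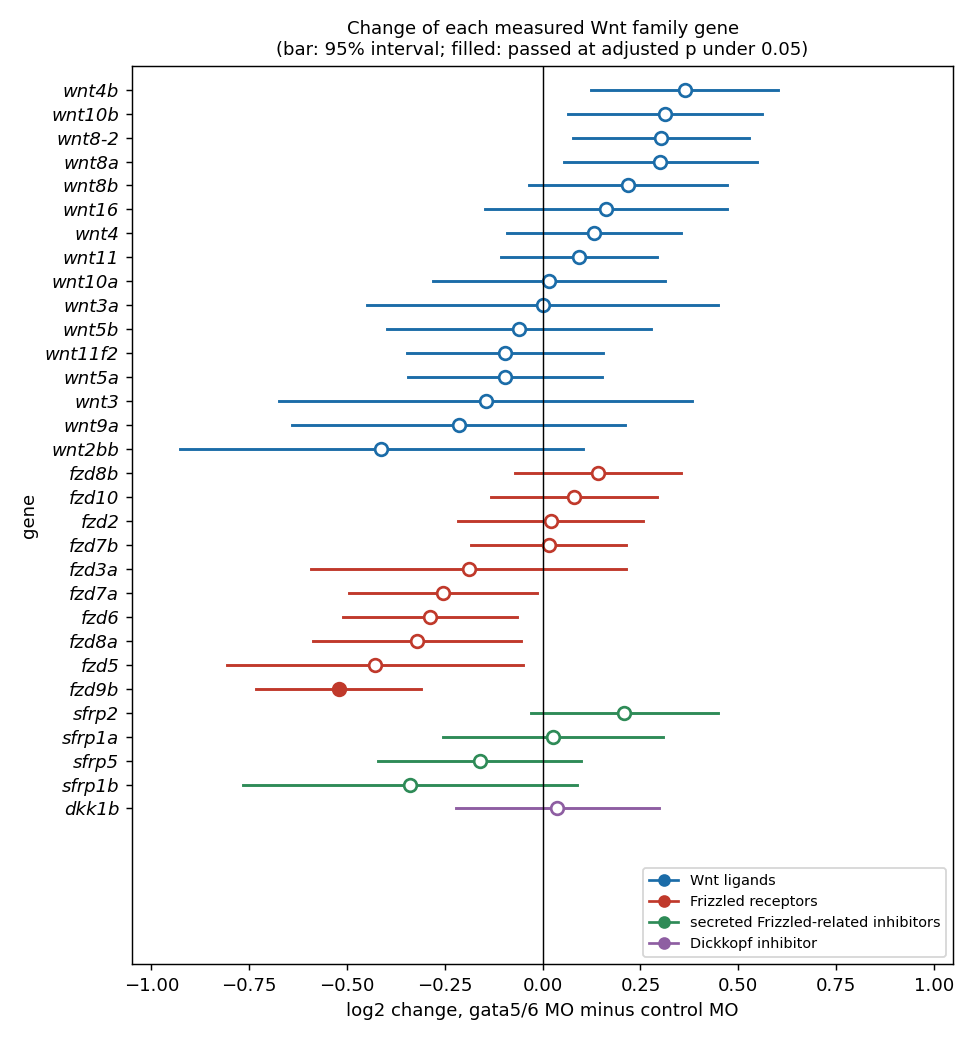
Log2 change of the 31 measured Wnt family genes (x axis, gata5/6 MO minus control MO), with 95% intervals from limma as bars, by class. Only fzd9b, at -0.52, is filled as having passed, and all intervals stay within 2-fold for the probe shown, the brightest kept one of each gene.

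Frizzled proteins are the seven-pass receptors that bind Wnts. The 10 measured receptor genes had a median log2 change of -0.22, and 1 fell while 9 did not pass. The signal of fzd9b, whose protein in zebrafish acts with Wnt9a in the forming of blood stem cells, was -0.91 and -0.82 on the gata5/6 MO arrays, against -0.32, -0.31 and -0.40 on the control MO arrays. Both gata5/6 MO arrays were thus below every control MO array, by more than the spread within either group. The mean was -0.87 ± 0.07 (SD, n = 2) in gata5/6 MO embryos and -0.34 ± 0.05 (SD, n = 3) in control MO embryos, a 1.44-fold fall (log2 change -0.52, SE 0.0860, limma adjusted p = 0.0138). A single probe, well above background on all arrays, stands for this gene. The other filters, the mean over probes and the test of every probe therefore could not alter its change. The call was lost without control MO replicate 1 (-0.51, adjusted p = 0.0835), 2 (-0.50, adjusted p = 0.0728) or 3 (-0.55, adjusted p = 0.0663), and with a separate variance for each group (adjusted p = 0.0937). It was also lost with normexp background correction (-0.50, adjusted p = 0.584) but kept with the repaired normexp (-0.45, adjusted p = 0.00814). Over 16 alternatives the change ranged from -0.57 to -0.45 and the adjusted p from 0.00723 to 0.584.

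A further 4 Frizzled genes had both gata5/6 MO arrays below all control MO arrays but did not pass. The groups did not overlap for 50.8% of all genes tested. They had unadjusted p-values under 0.05, and fzd6 and fzd7a are named for that after their values were seen. Such p-values were common among all genes tested, since tcf7l2, with an unadjusted limma p of 0.0495, had an adjusted p of only 0.157. Their share over all genes was not counted, so the number of members with them is not read as a result about the family. The signal of fzd5, a receptor of the eye field in zebrafish, was -1.33 and -0.90 in gata5/6 MO embryos, against -0.58, -0.82 and -0.65 in control MO embryos (log2 change -0.43, SE 0.154, adjusted p = 0.122). The signal of fzd8a, a receptor gene of the anterior neural plate, was 0.64 and 0.89 in gata5/6 MO embryos, against 1.15, 1.04 and 1.07 in control MO embryos (-0.32, adjusted p = 0.105). For both genes replicate 1 of gata5/6 MO was the lower array, and for fzd5 replicate 2 lay close to the lowest control MO array. The signal of fzd6, whose mouse counterpart acts in planar polarity of the skin, was 1.66 and 1.81 in gata5/6 MO embryos, against 2.05, 1.97 and 2.06 in control MO embryos (-0.29, adjusted p = 0.0913). The signal of fzd7a, a receptor gene of the gastrula movements, was 4.23 and 4.44 in gata5/6 MO embryos, against 4.60, 4.62 and 4.55 in control MO embryos (-0.25, adjusted p = 0.138). Without gata5/6 MO replicate 2 the changes were -0.64 for fzd5, -0.45 for fzd8a and -0.36 for fzd6 and fzd7a. Without gata5/6 MO replicate 1 they were smaller, at -0.21 for fzd5, -0.19 for fzd8a, -0.22 for fzd6 and -0.15 for fzd7a. The forebrain and eye markers did not pass in any of the 9 measured, with a median log2 change of 0.00 (range -0.29 to 0.02). Both gata5/6 MO arrays were below all control MO arrays for emx3 (-0.29), foxg1a (-0.26) and pax6a (-0.15), and the groups overlapped for the rest. The summed signals of the list were 22.2 and 25.1 in gata5/6 MO embryos, against 25.1 to 25.8 in control MO embryos (in units of the 75th percentile). Whether these markers bear on fzd5 and fzd8a was not tested.

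The other Frizzled genes were at -0.19 to 0.14. They were fzd8b (0.14), fzd10 (0.08), a dorsal neural receptor gene, fzd2 (0.02), linked to Wnt and calcium signalling, fzd7b (0.02) and fzd3a (-0.19), which guides neuron and axon movement. Their adjusted p ranged from 0.310 for fzd8b to 0.909 for fzd7b. For fzd8b both gata5/6 MO arrays (-1.34 and -1.47) lay above all control MO arrays (-1.54, -1.56 and -1.54), the opposite direction to the Frizzled genes above. The groups overlapped for the rest.

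**Figure D2:**
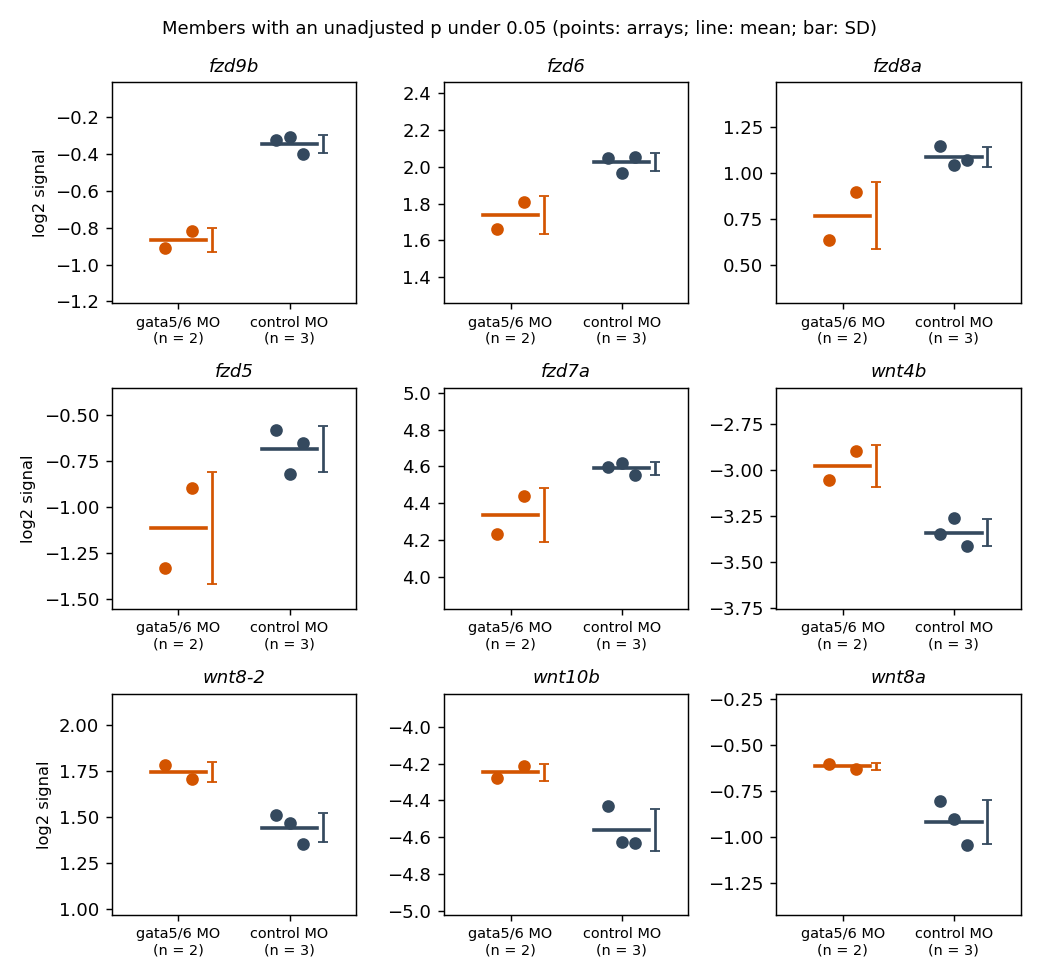
Log2 signal on each array (y axis, relative to the array's 75th percentile, the same span in each panel) of the 9 members with an unadjusted p under 0.05, gata5/6 MO left and control MO right; lines are means and bars SD. The 5 Frizzled genes are lower and the 4 Wnt genes higher on both gata5/6 MO arrays, while only fzd9b passed. Unadjusted p-values under 0.05 were common among all genes tested, and 50.8% of all genes had groups without overlap.

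Among the ligands none of 16 genes passed, and the median log2 change was 0.06. An unadjusted p under 0.05, a level common among all genes tested, was seen for 4. Those 4 were all higher on both gata5/6 MO arrays than on any control MO array, and wnt8-2, wnt10b and wnt8a are named for this after their values were seen. Among all genes tested, 50.8% had groups without overlap in either direction. The signal of wnt4b was -3.06 and -2.90 in gata5/6 MO embryos, against -3.35, -3.26 and -3.41 in control MO embryos (log2 change 0.36, SE 0.0973, adjusted p = 0.0599). Quantile normalization took wnt4b to an adjusted p of 0.0436, and normexp background correction turned its change to -0.14. With the repaired normexp its change was 0.23 (adjusted p = 0.0730). The gene is a relative of wnt4, which in zebrafish takes part in axis extension. The wnt4 signal was -0.39 and -0.25 in gata5/6 MO embryos, against -0.50, -0.40 and -0.46 in control MO embryos (0.13, adjusted p = 0.361), but the other probe of wnt4 gave -0.48.

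The genes wnt8-2 and wnt8a are neighbours in the reference table (assembly GRCz12tu) and form the zebrafish wnt8 locus, which promotes ventral and posterior fates. The signal of wnt8-2 was 1.79 and 1.71 in gata5/6 MO embryos, against 1.51, 1.47 and 1.35 in control MO embryos (log2 change 0.30, adjusted p = 0.0827). The signal of wnt8a was -0.60 and -0.63 in gata5/6 MO embryos, against -0.81, -0.90 and -1.04 in control MO embryos (0.30, adjusted p = 0.104). The ratio of the pair within an array differed between the groups by 0.00 on the log2 scale, and the groups overlapped. Tailbud and presomitic mesoderm markers, where wnt8a is known to be transcribed, had a median log2 change of 0.02, and none of the 10 measured passed. Their summed signals were 82.1 and 72.0 in gata5/6 MO embryos, against 71.9 to 75.9 in control MO embryos.

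The signal of wnt10b, which zebrafish transcribe at the midbrain-hindbrain boundary, was -4.28 and -4.21 in gata5/6 MO embryos, against -4.43, -4.62 and -4.63 in control MO embryos (log2 change 0.31, adjusted p = 0.0946). With normexp background correction it was -0.40, and with the repaired normexp 0.10. Of the 8 measured markers of that boundary 2 passed as higher and none as lower, with a median of 0.26 (range -0.17 to 0.47). The lowest was pax2a (-0.17, adjusted p = 0.313), for which the groups overlapped. The genes that rose were the homeobox gene en2a (0.47, adjusted p = 0.0329) and the paired-box gene pax5 (0.37, adjusted p = 0.0421), and the summed signal of the list was 11.7 and 11.2 in gata5/6 MO embryos, against 9.96 to 10.67 in control MO embryos. Among all genes tested 7.84% were higher. The en2a call held under 9 of 16 alternatives and the pax5 call under 7, and pax5 was at 0.14 (adjusted p = 0.835) with normexp background correction. The calls of both were lost, among other alternatives, without control MO replicate 1 (0.52 for en2a and 0.37 for pax5), 2 (0.40 and 0.37) or 3 (0.48 and 0.38), and that of en2a also without gata5/6 MO replicate 1 (0.49, adjusted p = 0.0511). The part of these markers in the wnt10b values was not tested. The boundary and neural ligand genes wnt3 (-0.15, adjusted p = 0.676) and wnt8b (0.22, adjusted p = 0.208) did not pass either.

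The largest ligand difference in either direction by fitted change was that of wnt2bb, whose product in zebrafish lateral plate mesoderm instructs liver formation. Its signal was -5.08 and -4.66 in gata5/6 MO embryos, against -4.63, -4.11 and -4.62 in control MO embryos (log2 change -0.41, SE 0.210, adjusted p = 0.237). The groups were apart only narrowly, since replicate 2 of gata5/6 MO lay just under the lowest control MO arrays, and the SD was 0.30 in both groups. The change was -0.20 without gata5/6 MO replicate 1, -0.62 without gata5/6 MO replicate 2, -0.24 without control MO replicate 2 and -0.06 with the repaired normexp correction, none of which passed. With the replicate block it was -0.50 and passed (adjusted p = 0.0359). Lateral plate and heart markers did change, with 5 of 7 lower, 1 higher (7.17% and 7.84% of all genes tested) and a median of -1.11. The list was not uniform, since foxf1 was the gene that rose (log2 change 1.16, limma adjusted p = 0.00498). Of those lower, nkx2.5 and tbx20 were well above background on no gata5/6 MO array, so they were tested only through the control MO group. Another, gata4, is itself reported to be lowered by these morpholinos. The summed signals of the 7 markers were 6.21 and 5.26 in gata5/6 MO embryos, against 8.53 to 9.01 in control MO embryos. This sum leans on its brightest genes. They were hand2 (mean 0.80 in gata5/6 MO and 1.90 in control MO embryos), which fell, and nkx2.7 (1.78 and 1.93), which did not pass. The part of these markers in the wnt2bb values was not tested.

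The ligands of the gastrula movements did not pass. The signal of wnt11f2, the silberblick gene, was 0.03 and -0.10 in gata5/6 MO embryos, against 0.17, 0.05 and -0.04 in control MO embryos (log2 change -0.10, adjusted p = 0.554). That of wnt5b, the pipetail gene, was -0.83 and -0.43 in gata5/6 MO embryos, against -0.56, -0.50 and -0.65 in control MO embryos (-0.06, adjusted p = 0.790). For both, the groups overlapped on the brighter probe. The other wnt11f2 probe gave -0.24, with both gata5/6 MO arrays below all control MO arrays, and did not pass (adjusted p = 0.232 over probes). The related wnt11 (0.09) and wnt5a (-0.10) gave adjusted p of 0.469 and 0.551. The tailbud ligand gene wnt3a had a log2 change of 0.00, with -2.54 and -1.95 in gata5/6 MO embryos, against -2.32, -2.15 and -2.26 in control MO embryos, so its 2 gata5/6 MO arrays lay on either side of all controls. The ligand gene wnt9a, which in zebrafish acts on blood stem cell precursors through fzd9b, was at -1.02 and -0.44 in gata5/6 MO embryos, against -0.50, -0.49 and -0.55 in control MO embryos (-0.21, adjusted p = 0.434), likewise on either side. The blood stem cell ligand gene wnt16 (0.16) and the fin and tooth ligand gene wnt10a (0.02) had adjusted p of 0.416 and 0.937.

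None of the 5 measured inhibitor genes passed or had an unadjusted p under 0.05, and their median log2 change was 0.03. The signal of sfrp2 was -0.14 and 0.05 in gata5/6 MO embryos, against -0.23, -0.21 and -0.32 in control MO embryos, without overlap (log2 change 0.21, adjusted p = 0.202), and its other probe gave 0.25. The signal of sfrp1b was -5.03 and -5.58 in gata5/6 MO embryos, against -5.06, -4.89 and -4.96 in control MO embryos (-0.34, adjusted p = 0.242), so replicate 2 of gata5/6 MO alone stood apart, and that array was not well above background. The sfrp1b change was -0.62 without gata5/6 MO replicate 1, -0.06 without gata5/6 MO replicate 2, and 0.06 with the repaired normexp correction. The signal of dkk1b, which encodes a coreceptor blocker that zebrafish need for head and heart patterning, was 2.14 and 1.89 in gata5/6 MO embryos, against 2.03, 1.93 and 1.97 in control MO embryos (0.04, 95% interval -0.22 to 0.30, adjusted p = 0.832). The groups overlapped for dkk1b, and for sfrp5 (-0.16, adjusted p = 0.343) and sfrp1a (0.03, adjusted p = 0.893). The second sfrp5 probe gave -0.23, with both gata5/6 MO arrays below all control MO arrays, and did not pass (adjusted p = 0.230 over probes).

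The 2 gata5/6 MO arrays differed from each other more than the control MO arrays did. The median SD per member was 0.129 in gata5/6 MO embryos and 0.0746 in control MO embryos, against 0.170 and 0.0654 over all genes tested. Replicate 1 of gata5/6 MO was below replicate 2 for 21 of the 31 members, and for 42.0% of all genes tested. Among the Frizzled genes this held for 9 of 10. The difference between these 2 arrays exceeded the change between groups for 16 of the 31 members, and for 56.2% of all genes tested. Without gata5/6 MO replicate 2 the median log2 change was -0.04 over the 31 members, against 0.07 over all genes tested. Without gata5/6 MO replicate 1 it was 0.07 over the members, against 0.01 over all genes tested.

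**Figure D3:**
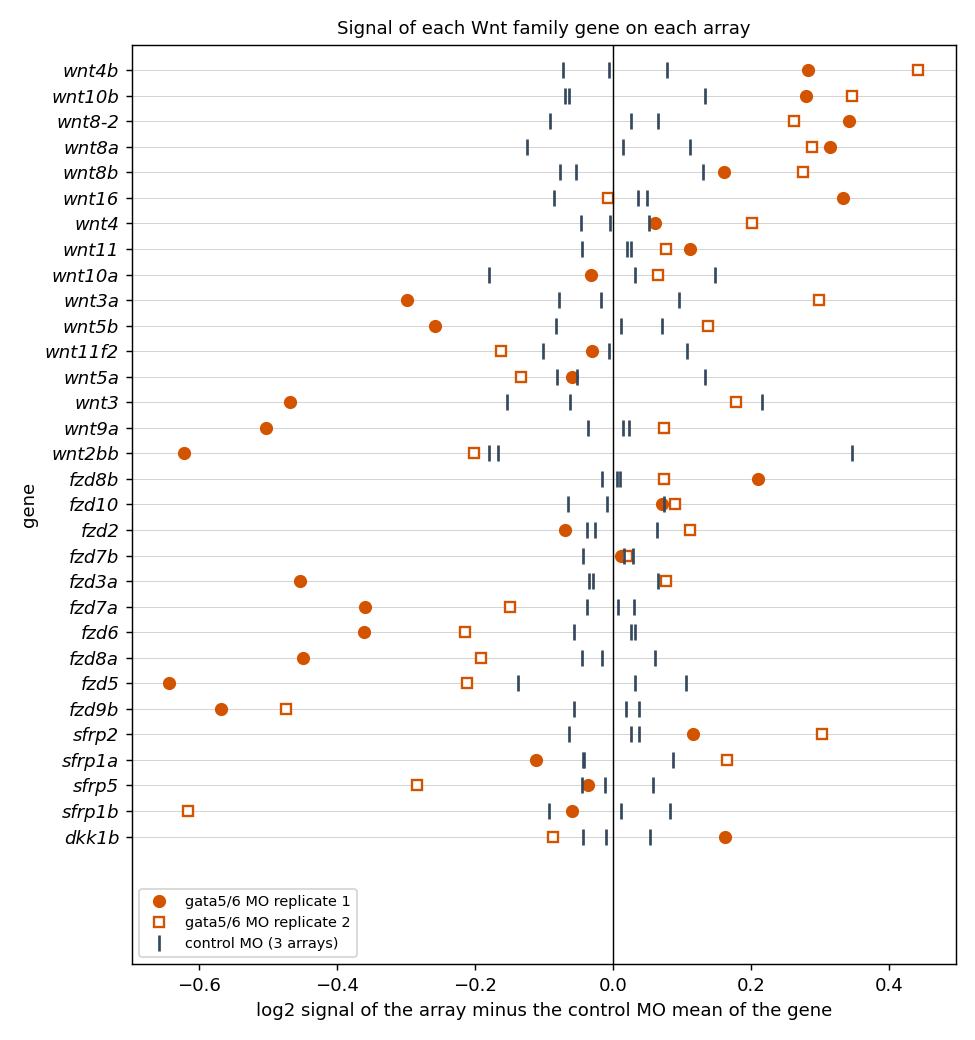
Log2 signal of each member on each array minus its control MO mean (x axis), with filled circles for gata5/6 MO replicate 1, open squares for replicate 2 and ticks for the 3 control MO arrays. Replicate 1 lies left of replicate 2 for 21 of 31 genes, as for wnt3a, wnt9a, wnt3 and fzd3a.

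Several kept probes stood for 13 of the 31 genes, and in 10 of these all probes gave changes of the same sign. The 4 fzd6 probes gave -0.30 to -0.05, the 2 of fzd7a -0.31 and -0.25, and the 2 of fzd8a -0.32 and -0.25. The probes of wnt4, wnt5b and fzd7b differed in sign, and for fzd7b all 5 lay between -0.10 and 0.05. The second wnt5b probe gave 0.32, against -0.06 for the brighter one. It was dim (mean -5.19 in gata5/6 MO and -5.51 in control MO embryos) and well above background on 2 of the 3 control MO arrays. This probe was thus tested only through the gata5/6 MO group, where its signal was higher. When every probe was tested on its own, with adjustment over 30616 probes, 1 of the 50 kept member probes passed, that of fzd9b, where 11.7% of all probes passed (6.09% higher and 5.63% lower).

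**Figure D4:**
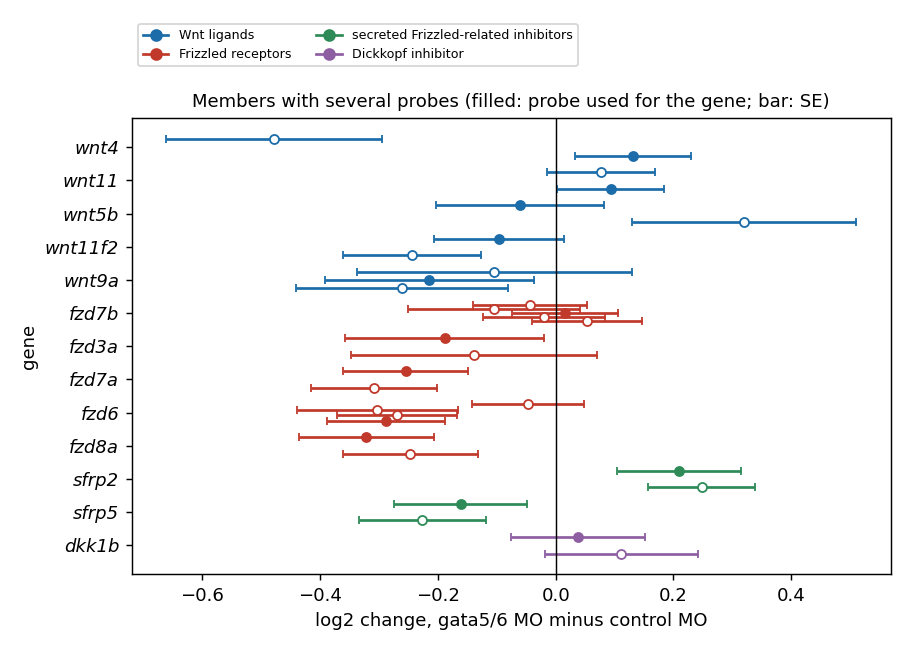
Log2 change (x axis, gata5/6 MO minus control MO, bars SE) of each kept probe of the 13 members with several, the filled point being the brighter probe used for the gene. The probes of fzd6, fzd7a and fzd8a all lie below 0, while those of wnt4 and wnt5b fall on both sides. The wnt5b probe above 0 was kept only through the gata5/6 MO group, where its signal was higher.

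Many zebrafish members come as pairs of related genes, and 9 such pairs were measured. The log2 ratio of a pair within each array shows whether its members changed unequally. The fzd8a to fzd8b ratio was 1.97 and 2.37 in gata5/6 MO embryos, against 2.68, 2.60 and 2.61 in control MO embryos, a difference of -0.46. The fzd7a to fzd7b ratio was 2.5 and 2.7 in gata5/6 MO embryos, against 2.85, 2.88 and 2.87 in control MO embryos, a difference of -0.27. For both pairs the groups did not overlap, and the ratio was lower in gata5/6 MO embryos. The wnt4b to wnt4 ratio differed by 0.23 without overlap, on the wnt4 probe at 0.13, while the other kept wnt4 probe was at -0.48. The wnt11f2 to wnt11 ratio differed by -0.19, also without overlap. The wnt3a to wnt3 ratio was -1.34 and -1.39 in gata5/6 MO embryos, against -1.44, -1.64 and -1.47 in control MO embryos, likewise without overlap (a difference of 0.15, exact permutation p = 0.2). By a two-sided exact permutation test the first 4 differences each had p = 0.1, the smallest that 10 splits of 5 arrays allow, and 0.225 adjusted over the 9 pairs, so no pair could pass in this design. The other pairs were wnt8-2 with wnt8a, wnt10b with wnt10a, wnt5b with wnt5a and sfrp1b with sfrp1a, for which the groups overlapped. The groups were thus apart for 5 of 9 pairs, where they were apart for 50.8% of all single genes tested. The share over other pairs of genes was not counted.

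Of 112 other listed genes of the pathway 72 were measured, among which 2 rose and 3 fell, where 15% of all genes tested passed. Of the 9 measured modulators outside the cell or in its membrane, 2 fell and 1 rose. The signal of sostdc1a, which encodes a secreted inhibitor of Wnt and BMP signals, was -3.92 and -4.82 in gata5/6 MO embryos, against -2.23, -2.30 and -2.20 in control MO embryos. The fall was 4.36-fold (log2 change -2.12 with SE 0.251, adjusted p = 0.00410), and the gata5/6 MO arrays differed by 0.89. The signal of rspo1, an R-spondin gene whose product strengthens Wnt signals and is needed for vessel growth in zebrafish, was -0.62 and -0.66 in gata5/6 MO embryos, against 0.75, 0.42 and 0.83 in control MO embryos. The fall was 2.47-fold (-1.30 with SE 0.139, adjusted p = 0.00284). Both genes lost their calls with normexp background correction (-1.17, adjusted p = 0.327 for sostdc1a and -1.07, adjusted p = 0.109 for rspo1), and rspo1 also with a separate variance for each group (adjusted p = 0.0677). With the repaired normexp both passed (-0.98, adjusted p = 0.00133 for sostdc1a and -1.14, adjusted p = 0.00146 for rspo1). The signal of notum1a, whose enzyme strips the lipid from Wnts and whose own transcription answers to them, was -4.28 and -4.27 in gata5/6 MO embryos, against -5.20, -5.01 and -4.84 in control MO embryos. It was 1.67-fold higher (0.74, adjusted p = 0.0140), with 2 of the 3 control MO arrays well above background. This probe was thus tested only through the gata5/6 MO group, where its signal was higher. With only probes above background on all 5 arrays, the notum1a change was 0.70 (adjusted p = 0.00943). The notum1a call was lost without control MO replicate 2 (0.74, adjusted p = 0.0646), with a separate variance (adjusted p = 0.185) and with both normexp corrections (-0.33 and 0.20). The median over the 9 was 0.16.

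Of the 27 measured genes of coreceptors and of signal transduction inside the cell, 1 rose and none fell, with a median log2 change of -0.21. The kinase gene gsk3aa was at -0.67 and -0.55 in gata5/6 MO embryos, against -1.14, -1.01 and -1.0 in control MO embryos (log2 change 0.44, adjusted p = 0.0317). Its call was lost under 8 of 16 alternatives, among them leaving out control MO replicate 1, 2 or 3 (0.40 to 0.47). The beta-catenin gene ctnnb2 (-0.32, adjusted p = 0.0869) and the coactivator gene bcl9l (-0.44, adjusted p = 0.151) did not pass. Replicate 1 of gata5/6 MO was below replicate 2 for 24 of these 27 genes, and their summed signal was 176 and 207 in gata5/6 MO embryos, against 220 to 227 in control MO embryos. The sum leans on its brightest genes, neither of which passed. These were ctnnb1 (mean 5.96 in gata5/6 MO and 6.25 in control MO embryos) and ctnnb2 (5.73 and 6.05).

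Of the 22 measured feedback and target genes of beta-catenin, 1 rose (notum1a, also counted above) and none fell, with a median of 0.03. The homeobox genes gbx1 (0.21, adjusted p = 0.132) and vox (0.24, adjusted p = 0.133) came next. The widely used readouts axin2 (-0.10, adjusted p = 0.594), sp5l (0.02, adjusted p = 0.904), lef1 (-0.21, adjusted p = 0.398) and nkd1 (0.16, adjusted p = 0.254), chosen after their values were seen, did not pass. For axin2 the signal was 2.51 and 2.82 in gata5/6 MO embryos, against 2.82, 2.76 and 2.71 in control MO embryos, so the groups overlapped. Without gata5/6 MO replicate 2, axin2 was at -0.25 and lef1 at -0.45, and without replicate 1 they were at 0.05 and 0.02.

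Of the 17 measured genes of planar polarity and other signals without beta-catenin, 1 fell and none rose, with a median of -0.16. The gene that fell was jun, which encodes a factor at the end of the JNK branch, with 1.18 on both gata5/6 MO arrays, against 1.63, 1.59 and 1.53 on the control MO arrays (log2 change -0.40, adjusted p = 0.0280). This call was lost under 6 of 16 alternatives, among them leaving out control MO replicate 1, 2 or 3 (-0.43 to -0.38). The Wnt receptor gene ryk (-0.28, adjusted p = 0.0930) and the polarity gene scrib (-0.51, adjusted p = 0.231) did not pass.

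**Figure D5:**
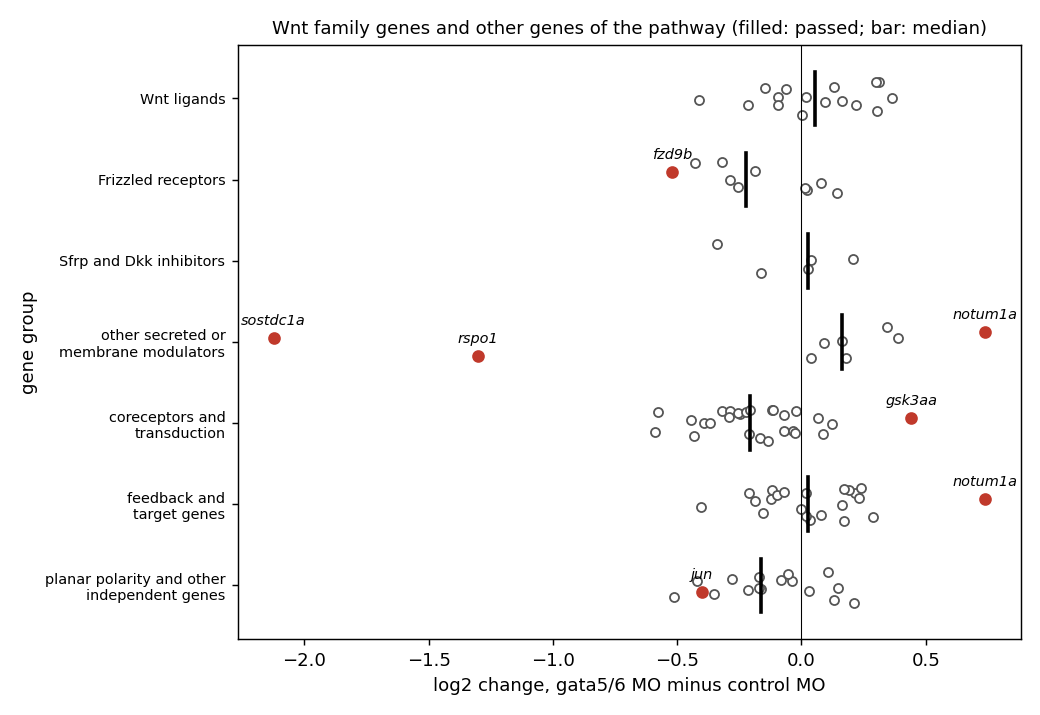
Log2 change (x axis, gata5/6 MO minus control MO) of the 3 classes of Wnt family genes and of the 4 lists of other pathway genes; points are genes, filled where they passed, and bars are medians. The genes that passed are fzd9b, sostdc1a, rspo1, notum1a (in 2 lists), gsk3aa and jun.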

How the data were processed

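Total RNA of 5 samples was labelled with Cy3. Per the file headers, spots were read with Agilent Feature Extraction 10.7.3.1 (the submitters' processing notes name 10.7.1.1), and the deposited processed intensity is background-subtracted within the array. The value table deposited by the authors holds log2 values with a median of 6.09 in every column and correlations of 0.9998 to 1.000 with the signals used here. They are not centred on 0, a direction does not apply to 1-colour values, and their normalization method is not stated in any source used here.

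The log2 processed intensity minus the array's log2 75th percentile was used. Probes with an outlier spot (52) were left out, as were those that in neither group were well above background on all arrays, which kept 30616. RefSeq accessions named 25598 of 43603 probes (58.7%) through a table of assembly GRCz12tu. The brightest kept probe on average stood for a gene. The comparison of the groups used limma 3.58.1 under R 4.3.3 (no covariates, 3 residual degrees of freedom). The code was run on simulated data with the same SD in both groups and with added changes larger than that of any member. That run therefore does not test the fit for changes as small as those of the members or for groups of unequal spread. The number of arrays limits the precision.

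The members and lists were chosen with earlier results of these data known. Each member is accounted for. Values on every array are given for members that passed, for the 2 largest changes that did not pass in each class, and for further members chosen after their values were seen. For the pathway lists the 3 genes with the smallest adjusted p are named. The 16 alternatives were normexp (offset 50) and a repaired normexp fitted without marked spots, quantile normalization, the deposited log2 values, 2 other filters, the mean over probes, every probe tested, 2 other variance models, the replicate block, and leaving out each array (a lone gata5/6 MO array was assumed to vary like the controls). The repaired normexp was added after seeing the data.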

Additional observations from a re-analysis of the deposited data

How the results depend on the processing

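The fzd9b change kept its sign under all 16 alternatives and passed under 11. These alternatives are not independent checks. The other filters, the mean over probes and the test of every probe could not alter its change, since 1 probe stands for it. Neither could the other variance models, which alter only the error. Quantile normalization and the deposited values gave nearly the same change (-0.53 and -0.54). Members called higher and lower numbered 0 and 1 in the analysis reported, 0 and 0 with normexp, 1 and 2 with the repaired normexp, 1 and 1 with quantile normalization or the authors' deposited values, and 0 and 0 with a separate variance for each group. With the replicate block they numbered 0 and 2, the second being wnt2bb (log2 change -0.50, adjusted p = 0.0359). Leaving out 1 array gave 0 to 4 higher and 0 to 7 lower. The same-numbered replicates had correlated deviations from their group means (0.1225 and 0.1995 over genes), but with 2 pairs the numbers are not shown to pair the samples. Over all genes, 846 higher and 774 lower became 19 and 23 with normexp, and 869 and 724 with the repaired normexp. They became 290 and 257 with a separate variance, and 1863 and 1724 among probes when every probe was tested. They ranged from 371 to 3114 and from 314 to 2165 when 1 array was left out, the highest without gata5/6 MO replicate 2. The 31 measured members and the other genes named were refitted under each alternative, and no change that turned passed after it had turned. With normexp, wnt4b (-0.14), wnt10b (-0.40), notum1a (-0.33), wnt8b (-0.21), wnt4 (-0.031), wnt16 (-0.16), wnt10a (-0.46), wnt3a (-0.21), fzd8b (-0.025), nkd1 (-0.26) and axin2 (0.020) turned. With the repaired normexp, sfrp1b (0.057), wnt5a (0.020) and sp5l (-0.0073) did. Genes near 0 turned with quantile normalization and with the authors' deposited values, namely fzd10 (-0.0031 and -0.0029), fzd2 (-0.0130 and -0.0132), fzd7b (-0.0068 and -0.0064), sfrp1a (-0.0020 and -0.0012) and sp5l (-0.018 and -0.017). With the mean over probes these were wnt4 (-0.17), wnt5b (0.13), fzd7b (-0.020), axin2 (0.020) and sp5l (-0.0050), and with the replicate block wnt3a (-0.0082) and fzd7b (-0.0060). The wnt5b mean includes the probe kept only through the gata5/6 MO group, where its signal was higher. Over left-out arrays the change ranged across 0 for dkk1b (-0.087 to 0.16), wnt16 (-0.0073 to 0.33), wnt9a (-0.50 to 0.074), wnt3 (-0.47 to 0.18), wnt5b (-0.26 to 0.14), wnt10a (-0.073 to 0.091), wnt3a (-0.30 to 0.30), fzd3a (-0.45 to 0.077), fzd2 (-0.070 to 0.11), fzd7b (-0.0060 to 0.030), sfrp1a (-0.11 to 0.17), axin2 (-0.25 to 0.053), lef1 (-0.45 to 0.022) and sp5l (-0.040 to 0.076). The cause was not tested.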

Other observations

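Some members that were not measured gave a signal well above background on a single array. The wnt2 probe read -7.83 and -7.72 on the gata5/6 MO arrays, against -4.38 on control MO replicate 1, where it was well above background, and -7.72 and -7.75 on the other control MO arrays. The first fzd3b probe read -5.77 and -4.68 on the gata5/6 MO arrays, the second of these well above background, against -6.04, -5.84 and -6.13 in control MO embryos. The wnt9b probe read -5.51 on both gata5/6 MO arrays, well above background on replicate 1, against -6.62, -6.25 and -5.70 in control MO embryos.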
